A study of Mus musculus with 6 samples.

Results

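The accessibility of 41 genes that write, erase or read chromatin and DNA methylation marks was followed in tumor-infiltrating CD8 T cells. These genes were taken by name and fall into 8 roles: DNA methylation writers and erasers, Polycomb, H3K9 methyltransferases, H3K4 and H3K79 methyltransferases, histone demethylases, histone acetyltransferases, histone deacetylases, and chromatin remodelers with the architectural factor Ctcf. A region of the deposited count table belonged to a gene where it overlapped the gene body, or where it lay between genes with that gene as the nearest protein-coding one within 100 kb. By this rule 369 of 74686 regions belonged to the 41 genes, and each gene had at least 1. Regions within 2 kb of either end of a gene (60) were kept apart from those farther away (309). A position near a gene is not proof of a regulatory link to it, and exons, introns and UTRs were not distinguished.

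The assay was ATAC-seq, in which a transposase cuts and tags open DNA, so that read counts over a region measure its accessibility. The cells were OT1 CD8 T cells, whose transgenic receptor recognises an ovalbumin peptide, which were sorted on CD8 and on CD45.1, a congenic marker. They came from tumors of B16-OVA-GP61, a melanoma line of the mouse that bears ovalbumin and the epitope GP61. The 2 groups of 3 libraries differed in whether the mice had also received SMARTA cells, CD4 T cells with a transgenic receptor for GP61. The comparison therefore asked whether CD8 T cells against the tumor carry different chromatin when CD4 T cells against it are there too. Both groups share the receptor, the tumor line and the handling: cells were sorted, frozen in DMSO, and thawed for the assay after collection was complete. The labels give no age, strain or number of cells, and do not tie replicates to separate animals. Each p-value is therefore about the spread between libraries, part of which may be technical.

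The DNA methyltransferases add methyl groups to cytosine and the Tet enzymes oxidise them, while histone-modifying enzymes set or remove acetyl and methyl groups that mark active or silent chromatin. The remodelers use ATP to move nucleosomes, and Ctcf anchors chromatin loops. In CD8 T cells these regulators are known for stabilising naive, effector, memory and exhausted states, with Dnmt3a, Tet2 and Ezh2 among the most studied.

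Total counts per library ranged from 16595779 to 27182809, the median region held 62 to 114 counts, and the biological coefficient of variation was 18.0%. Replicate 2 with SMARTA had the lowest total and stood apart from its group on the second principal component of log2 CPM (counts of a region scaled to a common library total), at 89.1 against -72.1 and -36.6. Values are given in library order below, so that its level can be seen beside each result. Regions near the ends of 7 of 8 CD8 T cell markers summed to 638 to 688 CPM without SMARTA and 642 to 710 CPM with SMARTA. Of 7 melanocyte markers, Dct, Sox10, Tyr and Tyrp1 had no region near an end and the other 3 summed to 155 to 171 against 178 to 190 CPM. CD4 T cell markers (3 of 4 with a region near an end, Foxp3 having none) summed to 71.9 to 86.5 against 89.1 to 101 CPM, and myeloid markers (4 of 6) to 35 to 42.6 against 24.3 to 33.0 CPM. B cell markers (1 of 4 with such a region) summed to 4.04 to 6.17 against 7.30 to 9.27 CPM, and those of fibroblasts and endothelium (3 of 5) to 23.8 to 27.9 against 25.6 to 26.3 CPM. The CD4, melanocyte and B cell sums were higher and the myeloid sums lower with SMARTA in every library, and their part in the results below was not tested.

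With SMARTA cells, 35 of the 369 regions closed and 13 opened, where closed and opened mean an adjusted p under 0.05 by edgeR's quasi-likelihood test with Benjamini-Hochberg adjustment over all 74686 regions and a negative or positive log2 fold (with minus without SMARTA). The closed share was 9.49% beside 10.4% of all regions, and the opened share 3.52% beside 4.68%, so neither share stood far from that of the whole table. The median log2 fold was 0.04 over the 369 regions and 0.01 over all regions. Of the 41 genes, 12 had closed regions only, 7 had opened regions only, Hdac4 and Ctcf had both, and 20 had no region past the threshold. In a bulk library, fewer cells with a region open and less opening per cell cannot be told apart. The groups did not overlap, with SMARTA lower, in 65 regions (17.6%, beside 18.5% of all regions) and with SMARTA higher in 68 (18.4%, beside 15.7%). All 35 closed and all 13 opened regions were among them, so separate groups at a called region are no further support for its call.

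Closed regions were weaker sites than opened ones. They had a median level of 2.05 log2 CPM, close to the 2.14 of regions that did not pass, and a median log2 fold of -1.25, ranging from -2.76 to -0.49. Opened regions had a median level of 4.38 log2 CPM and a median log2 fold of 0.47, ranging from 0.22 to 1.30. The authors' peak lists, called in each library alone, ran the same way: 22 of the 35 closed regions had a peak in more of the libraries without SMARTA than with, 0 had the reverse, and 5 had a peak in all 3 libraries without SMARTA and in none with. Of the 13 opened regions 12 had a peak in all 6 lists. Peaks and counts come from the same reads and are not independent measures, so this direction follows in part from the call. Of the 321 regions that did not pass, 47 had a peak in more libraries without SMARTA and 40 in more with. A peak in all 3 libraries without SMARTA and in none with was seen in 3 of these 321.

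Leaving out 1 library moved these counts by more than 1.5 times. Without replicate 3 with SMARTA, 19 regions closed and 7 opened. Without replicate 2 or 3 of the libraries lacking SMARTA, 23 and 22 closed and 7 opened each time. Without their replicate 1, 7 opened. Replicate 2 with SMARTA was the lowest library of its group in 20 of the 35 closed regions, yet without it 34 of the 35 and all 13 opened regions still passed. All 48 kept their direction in all 13 alternative fits that were run. The fit without a filter is among the 13 and gave the main values again, because the main filter kept all 74686 regions.

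**Figure D1:**
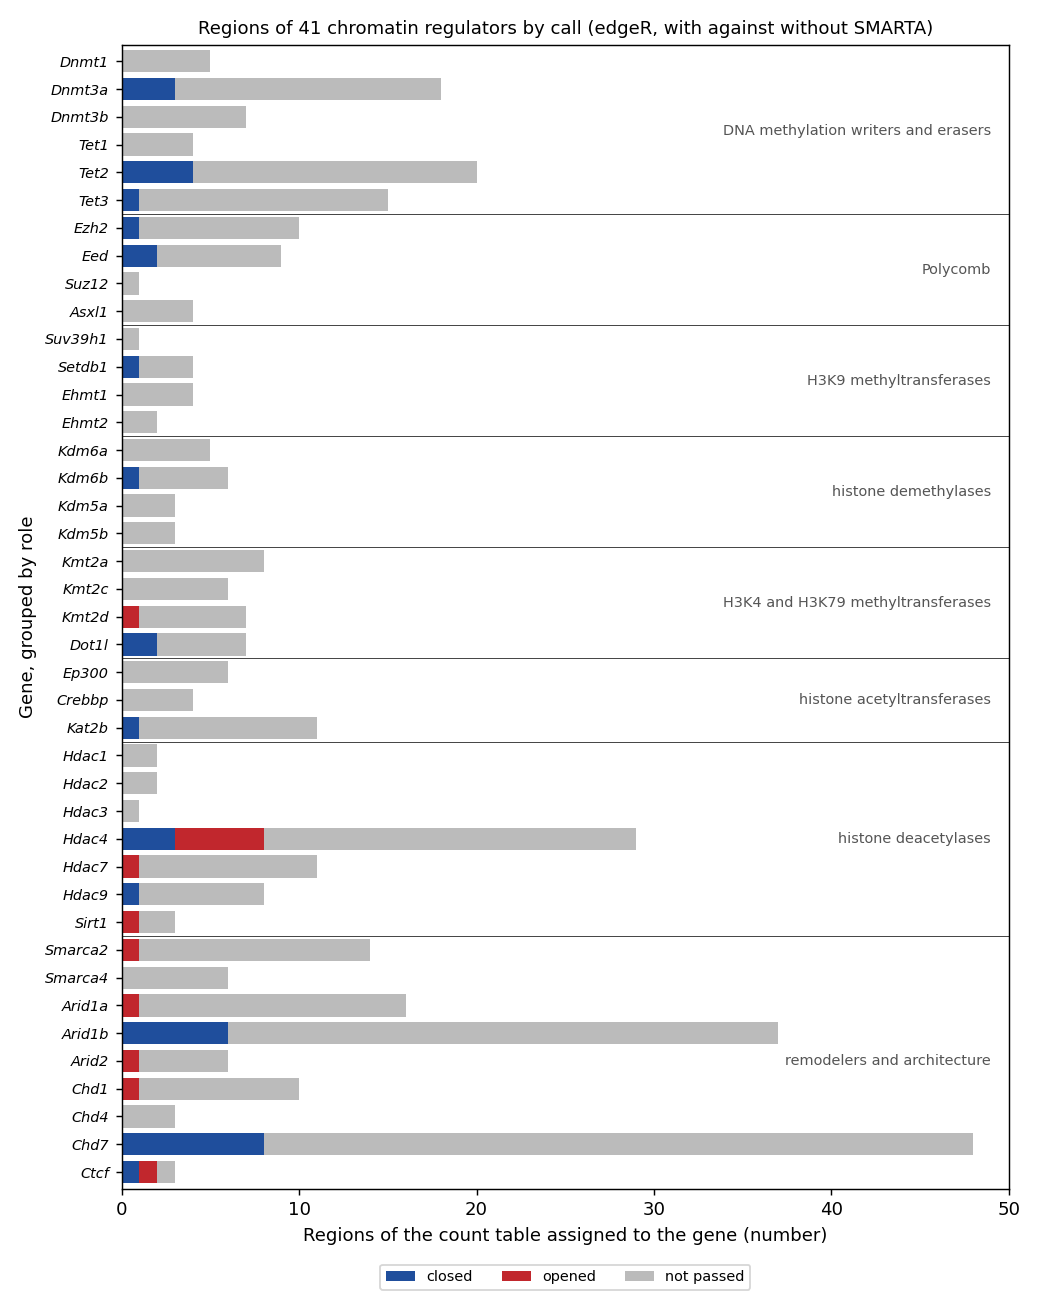
Number of regions of the count table assigned to each of the 41 genes (horizontal axis), grouped by role; blue marks regions that closed, red regions that opened and grey regions that did not pass. Chd7 (8 of 48) and Arid1b (6 of 37) had the most closed regions, and Hdac4 (3 closed and 5 opened of 29) was the gene with the most opened ones.

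Closed regions were a higher share in the 5 genes with the most regions than in the rest. Chd7, Arid1b, Hdac4, Tet2 and Dnmt3a together held 152 regions, of which 24 closed (15.8%) and 5 opened (3.29%), and the other 36 genes held 217, of which 11 closed (5.07%) and 8 opened (3.69%), beside 10.4% and 4.68% of all regions. Over the 41 genes, gene length and number of regions had a Spearman rho of 0.58, and number of regions and number of called regions one of 0.72; both are descriptions, and regions of 1 gene share a locus.

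The share of closed regions was lower near gene ends, among the members and in the whole table. Of the 309 regions away from gene ends, 33 closed (10.7%, beside 12.0% of all such assignments) and 9 opened (2.91%, beside 4.46%). Of the 60 regions within 2 kb of an end, 2 closed (3.33%, beside 3.86%) and 4 opened (6.67%, beside 5.21%). All 4 shares were near those of the table, and the counts near the ends fell to 1 closed and 1 opened without replicate 2 or 3 lacking SMARTA, to 1 opened without its replicate 1, and to 1 and 2 without replicate 3 with SMARTA. Away from the ends, 21 closed without replicate 3 lacking SMARTA, and 18 closed and 5 opened without replicate 3 with SMARTA. The 74 regions between genes and over 2 kb from an end held 12 closed (16.2%, beside 12.4% of all such assignments) and 0 opened ones (beside 3.89%), with a median log2 fold of -0.17 beside -0.02. Just inside the 2 kb limit lay regions of Hdac7 (1.93 kb from the end, log2 fold -0.59) and Kdm6b (1.96 kb, 0.09), and just outside it those of Smarca2 (2.11 kb, 0.45, opened) and Arid1a (2.19 kb, 0.21).

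The ends of these genes were open in both groups. For the 39 genes with a region near an end, the most accessible one had a peak in all 6 lists in 37 genes, and its log2 fold ranged from -0.89 to 0.37. None of these 39 closed, and 3 opened, those of Sirt1, Ctcf and Kmt2d. Under a loess scaling, which levels folds along accessibility, 1 of the 39 passed and 18 folds lay below 0 in place of 8, so small gains at strong gene ends depend on the scaling. A total of 25 regions, of 24 genes, overlapped a RefSeq start window (250 bases before to 50 after a gene start). Of these 0 closed and 3 opened (Sirt1, Ctcf and Hdac4), beside 2.34% and 6.48% of all regions over such windows, and their median log2 fold was 0.13, or 0.01 under loess. The opened end region of Kmt2d overlapped no such window of its gene.

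Sirt1 encodes an NAD-dependent deacetylase. Its start region, chr10:63338902-63339302, had 59.8, 64.7 and 58.6 CPM without SMARTA and 73.8, 85.7 and 76.8 CPM with SMARTA. The groups did not overlap, and the log2 fold was 0.37 ± 0.08 (SE, adjusted p = 0.012). Under loess it was 0.23 (adjusted p = 0.038), and without replicate 3 of the libraries lacking SMARTA the adjusted p was 0.066.

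Hdac4 encodes a class IIa histone deacetylase that shuttles between nucleus and cytoplasm. The region over its RefSeq start, chr1:92180293-92180693, lies 15.0 kb inside the annotated end of the gene and held 157, 165 and 156 CPM without SMARTA against 181, 206 and 188 CPM with SMARTA. These groups did not overlap either, at a log2 fold of 0.26 ± 0.06 (adjusted p = 0.013), which was 0.04 under loess (adjusted p = 0.49) and did not pass DESeq2's test (adjusted p = 0.081). Without replicate 3 of the libraries lacking SMARTA its adjusted p was 0.070.

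Ctcf encodes the insulator zinc finger protein. The end region of Ctcf, chr8:105636584-105636984, had 99.2, 98.6 and 99.9 CPM without SMARTA and 113, 111 and 122 CPM with SMARTA, so each library with SMARTA lay above each without. The log2 fold was 0.22 ± 0.06 (adjusted p = 0.032), and under loess 0.04 (adjusted p = 0.71); total-count scaling gave an adjusted p of 0.076 and DESeq2's test one of 0.15. Leaving out replicate 1, 2 or 3 lacking SMARTA, or replicate 3 with SMARTA, raised its adjusted p to 0.069, 0.10, 0.11 and 0.074.

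These 3 promoters are shown because they are the RefSeq start windows (GRCm38.p6) that an opened region overlaps. Each run is the 250 bases before the start on the gene's strand, 5′ to 3′, with matches to GGGCGG (the GC box) or CCAAT on either strand in capitals. The Sirt1 window is chr10:63339036-63339285 (minus strand), that of Hdac4 chr1:92180342-92180591 (minus strand) and that of Ctcf chr8:105636288-105636537 (plus strand).
Sirt1: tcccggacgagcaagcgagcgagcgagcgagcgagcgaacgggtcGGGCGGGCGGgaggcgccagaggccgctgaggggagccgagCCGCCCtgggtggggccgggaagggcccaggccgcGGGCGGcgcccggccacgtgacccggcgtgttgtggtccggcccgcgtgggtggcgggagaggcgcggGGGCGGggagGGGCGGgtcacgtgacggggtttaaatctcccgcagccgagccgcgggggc
Hdac4: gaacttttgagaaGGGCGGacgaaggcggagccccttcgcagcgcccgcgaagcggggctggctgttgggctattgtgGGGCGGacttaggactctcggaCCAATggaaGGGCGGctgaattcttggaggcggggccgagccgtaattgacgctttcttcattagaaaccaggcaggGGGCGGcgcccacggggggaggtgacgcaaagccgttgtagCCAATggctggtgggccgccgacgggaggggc
Ctcf: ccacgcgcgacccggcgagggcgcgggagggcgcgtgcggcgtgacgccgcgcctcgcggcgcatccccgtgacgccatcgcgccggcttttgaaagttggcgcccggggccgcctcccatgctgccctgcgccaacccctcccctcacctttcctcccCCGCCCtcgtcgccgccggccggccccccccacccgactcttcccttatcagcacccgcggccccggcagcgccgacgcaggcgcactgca

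Sirt1 and Ctcf were the richest of the 3, with 79.2% and 77.6% G or C and 39 and 40 CpG dinucleotides in 250 bases, against 65.2% and 23 for Hdac4. Sirt1 held 6 GC boxes (the first pair of which overlap), Hdac4 4 GC boxes and 2 CCAAT boxes, and Ctcf 1 GC box. The opened region covered all 250 printed bases of Sirt1 and of Hdac4 but none of those of Ctcf, where it began in the start window's last 4 bases.

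GC-rich promoters were common among the regulators. RefSeq windows were matched for 34 of the 41 genes (47 windows, some genes having several starts), with a median of 67.6% G or C and 23 CpG, against 55.6% and 10 for 21263 windows of protein-coding genes. A GC box was present in 36 of the 47 (76.6%), beside 42.6% of the protein-coding windows and 32.7% of all 32851 windows of the same length. CCAAT was in 10 (21.3% beside 33.8% of all windows) and CCGGAAG, an ETS core, in 4 (8.51% beside 6.91%). The remaining searched words were rare in the members: GCGCATGC (NRF1 core) in 1, AAGATGGCG (YY1 core) in 1, TATAAA in 1, that of Hdac9, and TGACGTCA (CRE) in 0, beside 2.26%, 0.606%, 12.4% and 1.55% of all windows. A match of letters is not a bound site.

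Among the DNA methylation genes, 8 of 69 regions closed (11.6%, beside 10.4% of all regions) and 0 opened (beside 4.68%). All 8 lay away from gene ends. Dnmt3a, a de novo methyltransferase, had 3 closed regions of 18. Tet2, which oxidises methylcytosine, had 4 of 20, and its relative Tet3 1 of 15. Dnmt1, the maintenance methyltransferase, Dnmt3b and Tet1 had 5, 7 and 4 regions, none past the threshold.

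The leading region of Dnmt3a (the one with the smallest p), chr12:3862090-3862490, lies inside the gene 52.0 kb from its nearer end. It had 9.61, 13.5 and 14.6 CPM without SMARTA and 3.36, 1.86 and 2.88 CPM with SMARTA. The highest library with SMARTA was well below the lowest without, and the mean with SMARTA was 21.5% of that without (log2 fold -2.20 ± 0.26, adjusted p = 0.00065). The other 2 closed regions, neighbours 10.9 kb from the start of one to the end of the next, had log2 folds of -1.83 and -1.39. All 3 passed in every alternative fit, with adjusted p up to 0.035. Near its end Dnmt3a had only a weak region, with 1.64, 1.50 and 1.45 CPM against 0.458, 1.02 and 0.973 CPM (log2 fold -0.89, adjusted p = 0.10). This region lies outside the gene and is not a measure of its promoters. Any start over 2 kb inside the gene would count as away from its ends.

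At Tet2 the leading region, chr3:133506277-133506677, sits within the gene 38.5 kb from an end. It had 9.21, 8.96 and 7.27 CPM without SMARTA and 2.55, 1.62 and 1.68 CPM with SMARTA. Again the groups were far apart, with the mean at 23.0% (log2 fold -2.12 ± 0.23, adjusted p = 0.00047), and the call held in every alternative fit. The other 3 closed Tet2 regions had log2 folds of -1.25, -1.11 and -1.0. Without replicate 3 with SMARTA their adjusted p was 0.053, 0.11 and 0.074. The last pair were also lost without replicate 1 (0.085 and 0.11) or replicate 3 (0.051 and 0.061) lacking SMARTA, and the last without its replicate 2 (0.077). The region at the Tet2 start was strong and did not pass, with 67.8, 79.6 and 75.0 CPM against 82.6, 76.6 and 83.4 CPM in overlapping groups (log2 fold 0.13, adjusted p = 0.31).

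Tet3 closed at chr6:83423543-83423943, inside the gene, 33.3 kb from an end. Its libraries held 4.28, 5.65 and 5.74 CPM without SMARTA and 1.93, 1.74 and 1.27 CPM with SMARTA, groups that did not overlap (log2 fold -1.68 ± 0.23, adjusted p = 0.0013). The end region of Tet3 had a log2 fold of 0.18 (adjusted p = 0.14).

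The Polycomb genes encode subunits of the complex that methylates H3K27 (the catalytic Ezh2, with Eed and Suz12) and Asxl1, a partner of the deubiquitinase Bap1. Here 3 of 24 regions closed (12.5%, near the 10.4% of all regions), 1 at Ezh2 and 2 at Eed, and 0 opened (beside 4.68%). Suz12 and Asxl1 had 1 and 4 regions and no call. The closed Ezh2 region, chr6:47621053-47621453, lies between genes, 25.8 kb from Ezh2. It had 13.2, 15.2 and 13.6 CPM without SMARTA and 7.84, 3.67 and 6.81 CPM with SMARTA. The libraries with SMARTA were all lower, replicate 2 the lowest (log2 fold -1.19 ± 0.26, adjusted p = 0.013, and 0.0051 without that replicate). The Ezh2 start region, with 81.3, 87.0 and 88.3 CPM against 92.4, 109 and 96.6 CPM, did not pass (log2 fold 0.21, adjusted p = 0.079). At Eed both closed regions lie between genes, 26.2 and 48.1 kb away, with log2 folds of -0.49 and -1.41. Both calls were lost without replicate 1 or 2 lacking SMARTA or replicate 3 with SMARTA, the first also without replicate 3 lacking SMARTA and the second without replicate 1 with SMARTA, with adjusted p up to 0.097 and 0.12.

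Setdb1, which trimethylates H3K9, had the only call among the H3K9 methyltransferases (1 closed of 11 regions, 9.09% beside 10.4% of all regions). The region, chr3:95360427-95360827, lies 3.23 kb outside the gene and had 2.84, 3.38 and 1.86 CPM without SMARTA against 1.53, 0.902 and 0.973 CPM with SMARTA. The groups did not overlap, but came close (log2 fold -1.25 ± 0.31, adjusted p = 0.022). Without replicate 1 or 2 lacking SMARTA, or replicate 3 with SMARTA, the adjusted p was 0.062, 0.098 and 0.10. Suv39h1, Ehmt1 and Ehmt2 had 1, 4 and 2 regions and no call, and the Setdb1 start region had a log2 fold of -0.08.

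Among the H3K4 and H3K79 methyltransferases, 2 of 28 regions closed (7.14%, beside 10.4% of all regions) and 1 opened (3.57%, beside 4.68%). Dot1l, the enzyme of H3K79, had the 2 closed regions, of its 7. The first, chr10:80758678-80759078, is 3.58 kb inside the gene and had 11.3, 23.7 and 22.4 CPM without SMARTA and 5.09, 1.38 and 3.48 CPM with SMARTA. Every library with SMARTA was well below the lowest without, and the mean with SMARTA was 17.3% of that without (log2 fold -2.51 ± 0.41, adjusted p = 0.0032). A peak was listed here in all 3 libraries without SMARTA and in none with. The second, chr10:80751992-80752392, is 2.71 kb outside the same end and had 21.3, 24.3 and 21.9 CPM against 11.3, 6.50 and 5.35 CPM (log2 fold -1.55 ± 0.26, adjusted p = 0.0034). Between them the start region of Dot1l was higher in all libraries with SMARTA but did not pass, at 61.6, 60.1 and 62.3 CPM without SMARTA and 64.9, 64.4 and 64.8 CPM with it (log2 fold 0.08, adjusted p = 0.49). Both Dot1l calls held in every alternative fit.

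Kmt2d, an H3K4 methyltransferase of enhancers, had 1 opened region of 7. This region lies over the gene end of lower coordinate, overlaps no RefSeq start window of Kmt2d, and also overlaps a neighbouring gene. It had 46.9, 48.3 and 50.1 CPM without SMARTA and 55.7, 58.0 and 66.9 CPM with SMARTA (log2 fold 0.31 ± 0.09, adjusted p = 0.037). The groups did not overlap, but the call did not pass under loess (0.13), total-count scaling (0.057) or DESeq2's test (0.075), nor without replicates 1, 2 or 3 lacking SMARTA or replicate 3 with SMARTA (0.093 to 0.11). Kmt2a and Kmt2c, of the same family, had 8 and 6 regions and no call.

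Kdm6b, an H3K27 demethylase, had the only call among the demethylases, 1 closed of 17 regions (5.88%, beside 10.4% of all regions). It is a weak site over the gene's end, with 4.78, 6.07 and 7.36 CPM against 3.46, 3.25 and 3.33 CPM (log2 fold -0.86 ± 0.21, adjusted p = 0.021). Without replicate 2 or 3 lacking SMARTA, or replicate 3 with SMARTA, the adjusted p was 0.067, 0.10 and 0.078. Kdm6a, with the same substrate, and the H3K4 demethylases Kdm5a and Kdm5b had 5, 3 and 3 regions and no call.

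Kat2b, also called PCAF, had the only call of the acetyltransferases, 1 closed of 21 regions (4.76%, beside 10.4% of all regions). Ep300 and Crebbp, the paralogous enhancer coactivators, had 6 and 4 regions and no call. The Kat2b region, chr17:53577761-53578161, lies 11 kb inside the gene and had 8.96, 12.6 and 16.7 CPM without SMARTA against 6.87, 3.37 and 6.29 CPM with SMARTA. The group without SMARTA was spread widely, but did not overlap the other (log2 fold -1.21 ± 0.30, adjusted p = 0.023). Leaving out replicate 2 or 3 lacking SMARTA, or replicate 3 with SMARTA, gave an adjusted p of 0.062, 0.10 and 0.060. The end region of Kat2b did not pass (log2 fold 0.24, adjusted p = 0.067).

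The deacetylases held 7 of the 13 opened regions, and 4 closed ones, in 56 regions (12.5% opened, beside 4.68% of all regions, and 7.14% closed, beside 10.4%). Of those 7, 5 were at Hdac4. Hdac4 had calls in both directions, with 3 closed and 5 opened of 29. No region of the count table lay within 2 kb of its ends, so no change could be called there. The opened region over its RefSeq start counted as away from the ends. Its region with the smallest p, chr1:92004128-92004528, closed: 8.27, 5.15 and 7.03 CPM without SMARTA became 2.55, 1.99 and 2.25 CPM with SMARTA (log2 fold -1.58 ± 0.23, adjusted p = 0.0018). Within the same gene, chr1:91984499-91984899 opened, from 13.5, 13.4 and 13.5 CPM to 26.7, 22.3 and 29.9 CPM (log2 fold 0.97 ± 0.15, adjusted p = 0.0027). In both, each library with SMARTA stood apart from all 3 without, on opposite sides.

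A run of 3 neighbouring Hdac4 regions, chr1:92064345-92072444 (8.10 kb), opened together, with log2 folds of 0.41, 0.69 and 1.30. The last had the highest fold of all opened regions, 1.89, 2.19 and 2.19 CPM against 3.97, 5.65 and 5.84 CPM (SE 0.22, adjusted p = 0.0035), with a peak in 1 library without SMARTA and all 3 with. The other closed regions had log2 folds of -1.63 and -0.90. Of the 8 Hdac4 calls, 4 held in every alternative fit. Beside the start region, the others were the closed region at -1.63 and the opened ones at 0.69 and 0.41, whose adjusted p was 0.065, 0.056 and 0.055 without replicate 3 with SMARTA. The first pair of these were also lost without replicate 2 lacking SMARTA (0.055 and 0.078), and the last without replicate 1 lacking SMARTA (0.052) or replicate 1 with SMARTA (0.053).

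Hdac9, a class IIa relative, closed at chr12:34040954-34041354, 6.23 kb outside the gene, from 1.84, 3.04 and 2.31 CPM to 0.815, 1.26 and 0.786 CPM. All libraries with SMARTA were lower (log2 fold -1.36 ± 0.30, adjusted p = 0.014), but not past the threshold without replicate 2 lacking SMARTA (0.070) or replicate 3 with SMARTA (0.072). Hdac7, the third class IIa member here, opened at 1 of 11 regions (log2 fold 0.47, adjusted p = 0.048), a call lost in 7 of 13 alternative fits, those without any 1 library but replicate 2 with SMARTA among them, with adjusted p up to 0.13. The class I enzymes Hdac1, Hdac2 and Hdac3 had 2, 2 and 1 regions, and none passed.

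The remodelers and Ctcf had the most regions (143), of which 15 closed (10.5%) and 5 opened (3.50%), near the 10.4% and 4.68% of all regions. Of these, Chd7, an ATPase that binds enhancers, had 8 closed of 48, and Arid1b, a subunit of the BAF complex, 6 of 37. Smarca2, one of the alternative BAF ATPases, the BAF subunit Arid1a, the PBAF subunit Arid2 and Chd1, a remodeler tied to transcribed genes, had 1 opened region each and none closed. Smarca4, the other BAF ATPase, and Chd4, of the NuRD complex, had 6 and 3 regions and no call.

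The region with the largest fall of all 369 was at Arid1b, chr17:5331111-5331511, inside the gene 16.1 kb from an end. It had 9.81, 4.77 and 4.75 CPM without SMARTA and 0.917, 1.02 and 0.898 CPM with SMARTA. The libraries with SMARTA were tightly low, at 14.7% of the mean without (log2 fold -2.76 ± 0.33, adjusted p = 0.00069), and replicate 1 was the highest of those without. A second closed region followed within a span of 1.26 kb (log2 fold -1.27, adjusted p = 0.037); it was lost without replicate 1 or 3 of either group, with adjusted p up to 0.15. Of the 6 closed Arid1b regions 2 passed in every alternative fit, and the other 4 were all lost without replicate 3 of either group. Its end region did not pass (log2 fold 0.13, adjusted p = 0.31).

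At Chd7 the leading region, chr4:8962162-8962562, lies 93.7 kb outside the gene, close to the 100 kb limit of assignment. It had 3.88, 3.58 and 3.43 CPM without SMARTA and 0.407, 1.14 and 1.05 CPM with SMARTA, groups that were far apart (log2 fold -2.05 ± 0.31, adjusted p = 0.0020). Of the other 7, 5 lie inside the gene and 2 outside, with log2 folds from -1.48 to -0.60. Of the 8, 4 passed in every alternative fit. The other 4 were all lost without replicate 3 lacking SMARTA, and some also without other single libraries, with adjusted p up to 0.17. The Chd7 end region had a log2 fold of 0.18 (adjusted p = 0.50).

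Ctcf closed at a weak intergenic site, chr8:105629348-105629748, 6.73 kb from the gene, with 2.14, 2.81 and 2.93 CPM without SMARTA and 1.12, 1.08 and 1.12 CPM with SMARTA. The libraries with SMARTA were all lower (log2 fold -1.24 ± 0.24, adjusted p = 0.0070), here in every alternative fit as well. This lies beside the small opening at the end of Ctcf given above.

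The opened remodeler regions were moderate in size. That of Smarca2, chr19:26607185-26607585, had 41.5, 43.7 and 44.8 CPM without SMARTA and 57.0, 62.9 and 57.6 CPM with SMARTA (log2 fold 0.45 ± 0.08, adjusted p = 0.0046). That of Arid2, chr15:96297799-96298199, had 11.8, 10.6 and 10.8 CPM against 19.2, 26.6 and 17.8 CPM (log2 fold 0.93 ± 0.19, adjusted p = 0.0086). Both were higher in all libraries with SMARTA and passed in every alternative fit. Arid1a and Chd1 had log2 folds of 0.94 (adjusted p = 0.024) and 0.81 (adjusted p = 0.035), but the first was lost without replicate 1 of either group or replicate 2 lacking SMARTA and the second without any 1 library but replicate 2 with SMARTA, with adjusted p up to 0.078 and 0.12.

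**Figure D2:**
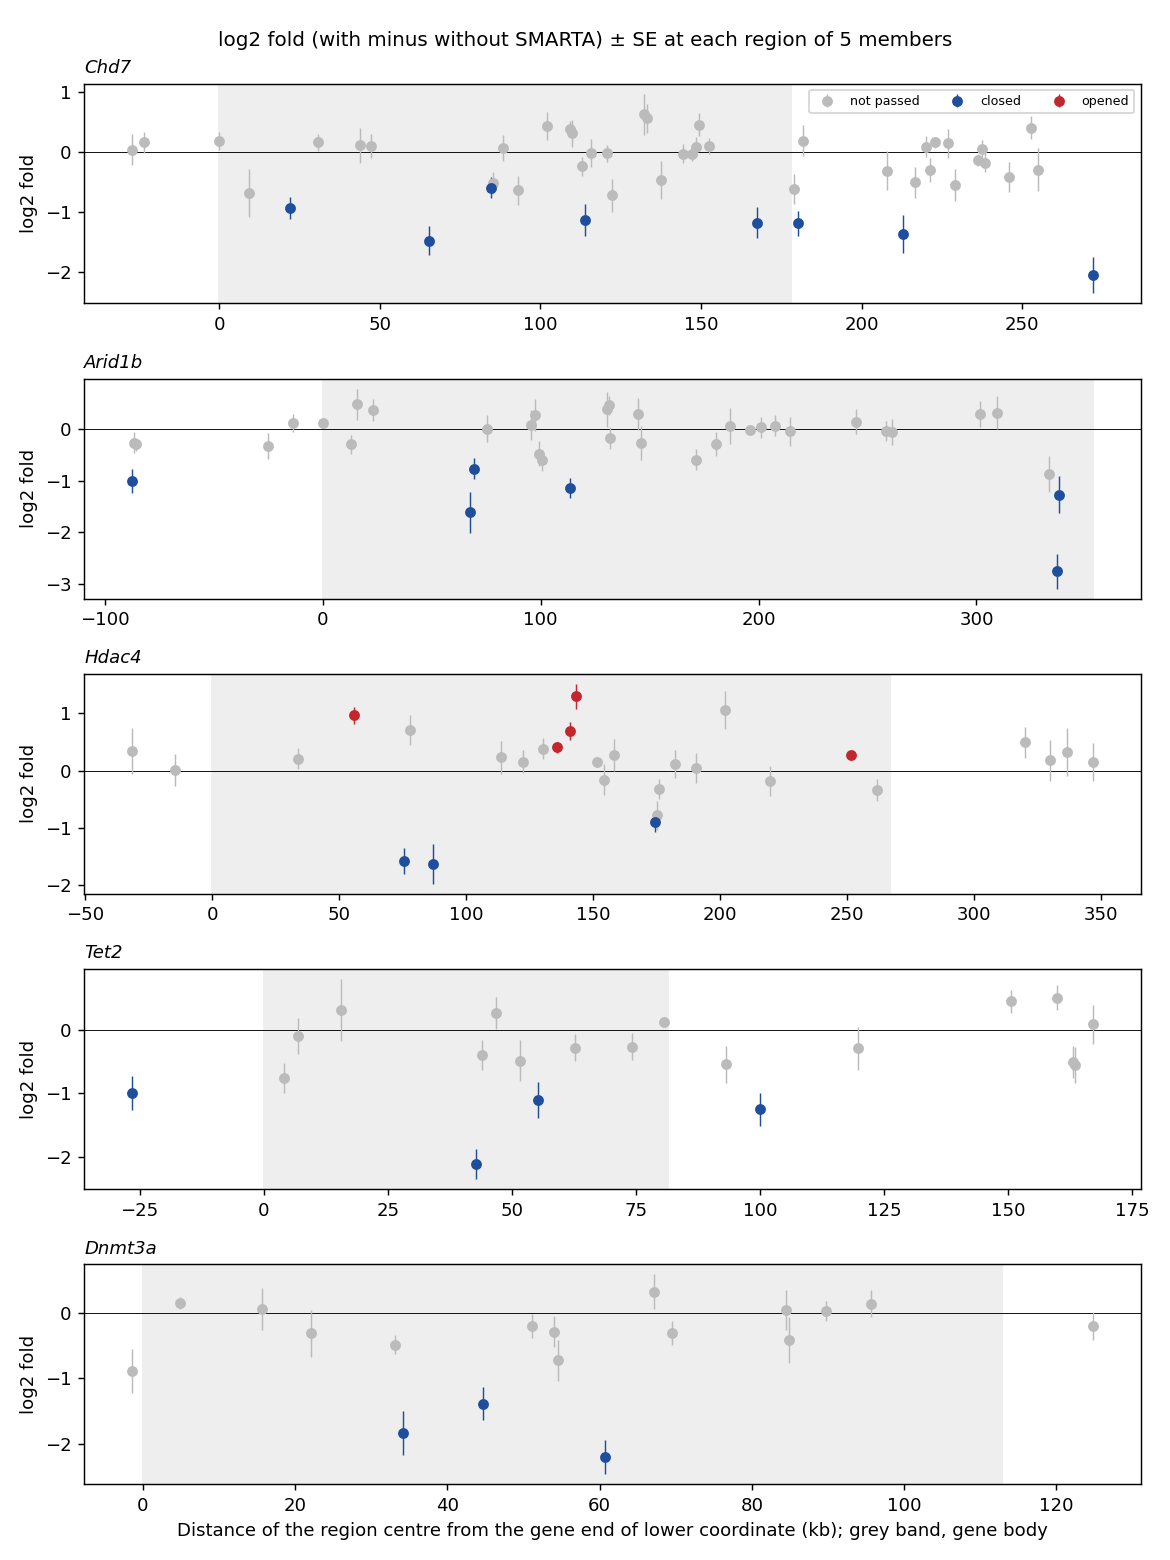
log2 fold (with minus without SMARTA, points with SE) of each region of Chd7, Arid1b, Hdac4, Tet2 and Dnmt3a against distance in kb from the gene end of lower coordinate; the grey band is the gene body, blue regions closed and red regions opened. Closed regions are spread along and beside the genes, 1 of them (at Chd7) within 2 kb of an end, and opened ones among these 5 genes appear at Hdac4 alone.

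**Figure D3:**
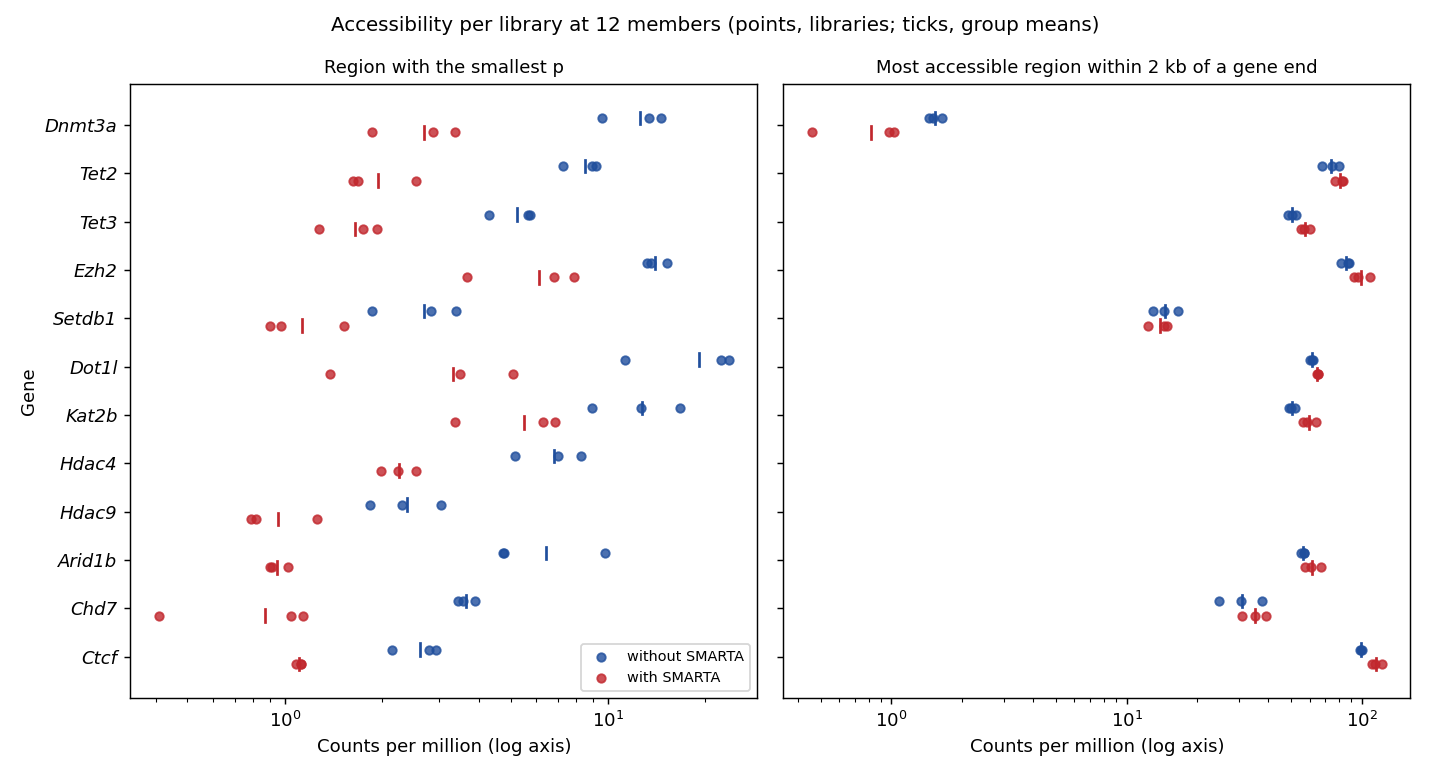
CPM in each library (log axis; points are libraries, ticks are group means) at 12 genes with 3 or more calls or a leading log2 fold of at least 1 in size, for the region with the smallest p (left) and the most accessible region within 2 kb of a gene end (right). On the left the groups are separate at all 12, with SMARTA lower. These regions were picked by smallest p at genes picked by their calls, so the separation follows from the choice. Of all regions, 18.5% were separate with SMARTA lower and 15.7% with SMARTA higher. On the right, where Hdac4 and Hdac9 have no region, the strong sites near the ends lie close together and the weak Dnmt3a site is the exception in level.

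Summing counts over all regions of a gene gives each gene 1 value per class. Away from the ends, 37 members could be tested: 4 fell, Tet2, Ezh2, Dot1l and Sirt1 (beside 9.79% of all 11811 genes), and 1 rose, Arid2 (beside 4.36%). In either direction 14.1% of all genes changed, and 5 of the 37 members did. Near the ends, 39 were tested: Sirt1 rose, 0 fell (beside 1.16% and 2.96% of 13312 genes, 4.12% in either direction). These shares are near those of all genes.

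The sums are given as CPM within their class. Away from its ends Tet2 had 213, 212 and 190 without SMARTA and 172, 120 and 153 with SMARTA (log2 fold -0.47 ± 0.13, adjusted p = 0.041). Ezh2 had 74.2, 77.0 and 70.1 against 50.0, 42.6 and 57.6 (log2 fold -0.56 ± 0.13, adjusted p = 0.021). In both, all libraries with SMARTA were below all without, replicate 2 being the lowest. Dot1l had 259, 362 and 334 against 252, 175 and 231 (log2 fold -0.54 ± 0.16, adjusted p = 0.046), where the groups came close without overlapping. Sirt1 had 14.3, 14.0 and 11.6 against 9.02, 7.85 and 8.65 (log2 fold -0.64 ± 0.17, adjusted p = 0.031). Arid2 rose from 75.6, 71.3 and 64.7 to 97.7, 112 and 99.6 (log2 fold 0.55 ± 0.11, adjusted p = 0.011). The groups of Sirt1 and of Arid2 did not overlap either. The share of all gene sums with separate groups was not counted, so this only describes the called sums.

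Each of these 5 calls at gene level was lost without at least 1 of the libraries. Without replicate 2 or 3 lacking SMARTA none of the 4 lower sums passed (adjusted p 0.053 to 0.17). Without replicate 1 lacking SMARTA, Dot1l alone of the 4 passed (0.027), as did Ezh2 alone without replicate 3 with SMARTA (0.025). That of Ezh2 was also lost without replicate 1 with SMARTA (0.052) and that of Dot1l without replicate 2 with SMARTA (0.052) or with DESeq2's size factors (0.052), while that of Sirt1 missed the threshold under total-count scaling (0.051). Without replicate 3 lacking SMARTA the adjusted p of Arid2 was 0.061. The Ezh2 sum rested on regions outside the gene, since with regions inside the gene alone the log2 fold was -0.18 (adjusted p = 0.48). That of Dot1l rested on regions 2 to 5 kb from an end, its 2 closed ones among them, and was -0.08 (adjusted p = 0.78) with those counted as near.

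The sums away from the ends were set against those near them in each library, as a log2 ratio in which a single scaling factor per library cancels. This comparison was added after the values were seen. Scaling that varies with accessibility does not cancel, and member regions near ends were stronger (median 4.81 against 1.90 log2 CPM). Under loess their median log2 fold was 0.01 in place of 0.10 near ends and 0.05 in place of 0.01 away. The part of such scaling in the ratio was not tested. By limma with Benjamini-Hochberg adjustment over 9163 genes, the ratio fell in 6 of 35 members and rose in 0, beside 11.5% and 3.74% of all genes. The 6 were Sirt1 (log2 fold -0.99 ± 0.17, adjusted p = 0.0049), Ezh2 (-0.78 ± 0.16, 0.0093), Tet2 (-0.62 ± 0.13, 0.012), Kat2b (-0.63 ± 0.16, 0.026), Dot1l (-0.62 ± 0.16, 0.028) and Arid1b (-0.33 ± 0.10, 0.043). Those of Sirt1 and Ezh2 passed without any 1 library, but the ratio was not run under other assignments. With assignment within 20 kb the sum of Ezh2 away from its ends had a log2 fold of -0.18 (adjusted p = 0.48). Of the 6 ratios, 3 passed without replicate 2 lacking SMARTA and 3 without its replicate 3. Single omissions raised the adjusted p of Tet2 to 0.051 (replicate 1 lacking SMARTA), of Kat2b to 0.11, of Dot1l to 0.11 and of Arid1b to 0.17.

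At Sirt1 both sums changed, in opposite directions. The sum away from its ends held only 2 weak regions, neither of which passed by itself. With regions inside the gene alone that sum did not pass (log2 fold -0.71, adjusted p = 0.13). Near the end of Sirt1 the sum was 104, 108 and 98.5 CPM without SMARTA and 119, 134 and 124 CPM with SMARTA, so all libraries with SMARTA were higher (log2 fold 0.28 ± 0.07, adjusted p = 0.037). That call was lost under loess (0.075) and total-count scaling (0.052), and without any 1 library except replicate 1 with SMARTA (0.083 to 0.14).

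**Figure D4:**
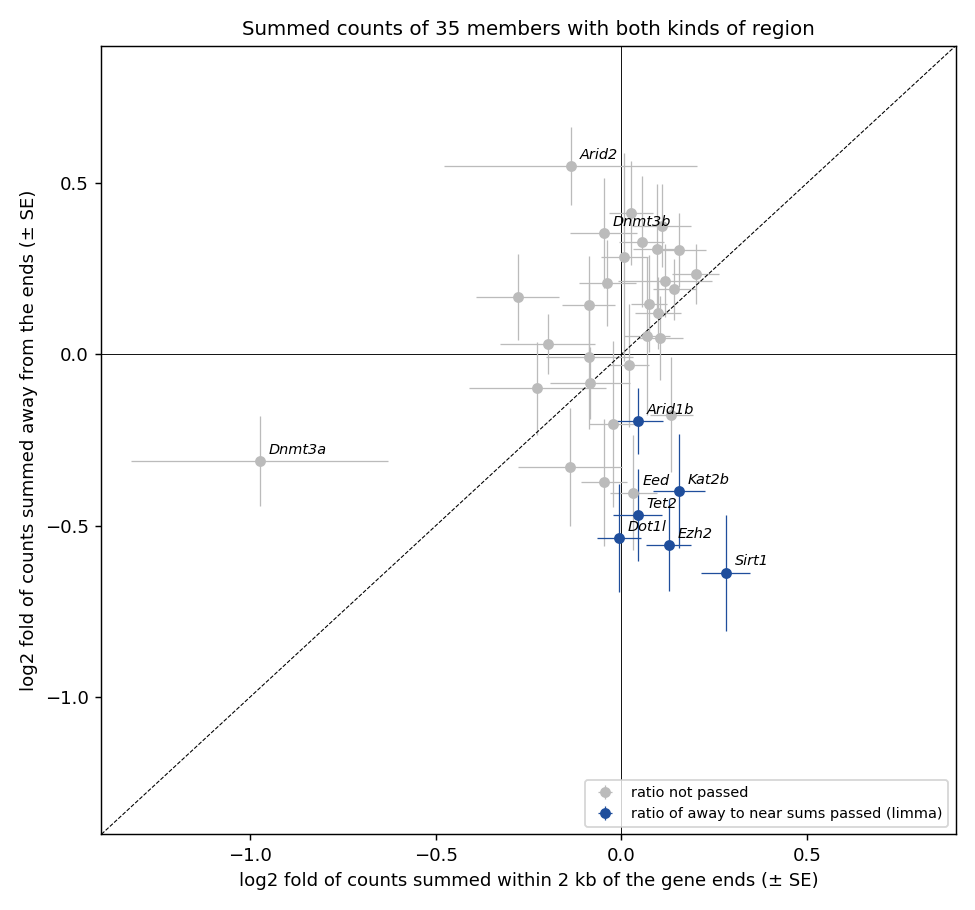
log2 fold (with minus without SMARTA, ± SE) of counts summed within 2 kb of the gene ends (horizontal) against that of counts summed away from the ends (vertical) for 35 genes with both; the dashed line marks equal folds. The 6 genes in blue, whose ratio of away to near sums fell by limma, lie below the line, and Dnmt3a at the far left has a mean near sum of only 2.60 CPM without SMARTA and 1.31 CPM with it.

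For comparison, 114 further regulators of the same 8 roles, listed by function, gave 761 regions at 109 genes. Of these 57 closed (7.49%, beside 10.4% of all regions) and 31 opened (4.07%, beside 4.68%), with a median log2 fold of 0.07. Near the ends 3 of 154 closed (1.95%, beside 3.86% of all such assignments) and 13 opened (8.44%, beside 5.21%). Away from them 54 of 607 closed (8.90%, beside 12.0%) and 18 opened (2.97%, beside 4.46%). Their sums away from the ends were lower in 8 and higher in 3 of 86 genes, beside 9.79% and 4.36% of all genes. The ratio of away to near sums fell in 13 and rose in 0 of 82, beside 11.5% and 3.74%. Among them, Jarid2, a Polycomb cofactor, had 6 closed regions of 27 and the NuRD subunit Gatad2a 4 of 22; both were named after their values were seen.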

How the data were processed

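ATAC-seq was done on 6 libraries, 3 per group, grouped and numbered by their titles. The authors deposited whole-number read counts over 74686 regions, with no normalization. They also deposited 6 peak lists, 1 called per library. The authors' caller gave each listed peak an enrichment ratio over background and a score, per the file columns. Its p and q values stand there as −log10, as the authors deposited them. Of these lists only the presence of a peak was used. Per the submitters' processing notes, BWA 0.7.17, SAMtools 1.8, Picard 2.18.9, MACS2 2.1.1, DiffBind 3.4.11 and build GRCm38 belong to the pipeline, in roles that are not given. How duplicates and the transposase shift were handled is not given in the sources used here, and leftover duplicates would inflate counts.

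Gene intervals came from RefSeq GRCm38.p6. Distances run from the region's nearer edge. Counts were fitted with edgeR 4.0.16 (R 4.3.3; TMM, filterByExpr, which kept all 74686 regions, glmQLFit, glmQLFTest, Benjamini-Hochberg, threshold 0.05). CPM are counts scaled to a common TMM-adjusted library total. The SE is the fold's size over the root of F. Gene sums were fitted likewise per class; ratios with limma 3.58.1 (prior count 2). The leading region of a gene is the one with the smallest p. Members, lists and rules were chosen with earlier results of these data known. Named in full are genes with 3 or more calls or a called leading region of absolute log2 fold 1 or more; other genes named with values form counts of 5 or fewer or overlap a start window. The code was tested on simulated data. There the region test recovered 3 of 50 regions changed by a fold of 1.5, 20 of 50 at 2, 45 of 50 at 4 and 50 of 50 at 8. It also called 15 regions that had not been changed. The test of sums away from gene ends called 12 genes that had not been changed. The simulation changed far fewer regions than passed here, so its recovery need not hold for the data. A region without a call is not shown to be unchanged.

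Alternatives were DESeq2 1.42.0 (size factors and test), total-count and loess (span 0.3) scaling, filters, a replicate block, each library left out, ends within 1 or 5 kb, and assignment within 20 kb or inside genes.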

Additional observations from a re-analysis of the deposited data

How the results depend on the processing

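None of the called log2 folds changed sign in the 780 alternative values run for them. The fit without a filter, which repeated the main values, is part of this and the later counts of alternative values. Of 117 alternative values of end regions that did not pass, 4 changed sign: the start regions of Tet2 (-0.02) and Dot1l (-0.05) under loess and that of Setdb1 without replicate 1 lacking SMARTA (0.02) or replicate 2 with SMARTA (0.0021). The median log2 fold, 0.04 over all 369 regions and 0.01 away from the ends, was -0.00074 and -0.02 under total-count scaling, and away from the ends as low as -0.03 without 1 library. With regions inside genes only, 22 regions closed (21 away from ends, 1 near), and 1 gene sum was lower; ends within 1 kb gave 1 closed near region and 2 changed near sums, and ends within 5 kb 5 and 3. Total-count scaling left 2 opened near regions, 3 higher sums and 0 changed near sums; loess scaling 2 higher sums and 0 changed near sums; DESeq2's test 2 higher sums. Library sizes of the region fit (added after seeing the data) gave 3 changed near sums. Leaving out 1 library gave 19 to 38 closed and 7 to 19 opened regions (near ends 1 to 3 and 1 to 6, away 18 to 36 and 5 to 13), 0 to 4 lower, 0 to 2 higher and 0 to 3 changed near sums. Deviations of same-numbered libraries correlated at -0.020, -0.078 and 0.076 for numbers 1, 2 and 3. Those of all pairs across the groups ranged from -0.107 to 0.086, and not every library correlated best with its own number. Values this weak cannot decide whether same-numbered libraries share a batch, and the labels tie them by number alone. A replicate block gave 34 closed and 14 opened regions and 2 lower sums, without Dot1l (adjusted p = 0.073) and Sirt1 (0.055). It also ended the call of the Arid1b ratio (0.063) and of 1 region each of Hdac7 (0.075), Arid1b (0.051) and Chd7 (0.080). Closed calls kept under every scaling numbered 35 of 35, and opened ones 10 of 13 under total-count, loess or DESeq2's test. In single regions, sums, medians and counts per gene, 958 alternative values kept their direction and their side of the threshold or moved within the spread, 143 fell short of it, 2 newly passed and 37 changed otherwise, the 4 sign changes among them. Depth limits the weak sites, such as the closed Setdb1 region with 0.902 to 3.38 CPM per library.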

Other observations

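The table of regions left out part of the peaks listed in these genes. Inside the 41 genes, the authors' lists held 280, 323 and 319 peaks without SMARTA and 308, 276 and 299 with SMARTA, of which 48, 52 and 43, and 44, 52 and 39, overlapped no region of the table and so entered no comparison.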
